A study of Mus musculus with 8 samples.

Results

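Heat shock proteins and their cochaperones were followed as 1 group of genes in the mouse brain. The members were the genes of the deposited count table whose symbols name a heat shock protein (Hsp90, Hsp70, Hsp110, the mitochondrial chaperonin or a small heat shock protein), an HSP-binding protein, a J-domain protein of classes A to C (Dnaja, Dnajb, Dnajc) or a BAG domain protein (Bag1 to Bag6). This rule uses names and no measured value, but the group and the gene lists below were chosen with earlier results of these data known. It gave 74 of the table's 17613 genes under 73 symbols, since Hspa14 has 2 rows. Of the 74, 72 had enough counts to be tested, among 15902 genes tested in all. The 2 that did not were Dnajb13, at 5 to 18 counts per library, and Hspb2, at 1 to 17 counts per library.

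Heat shock proteins are molecular chaperones: they bind unfolded or unstable proteins, keep them from aggregating and help them fold, assemble or be degraded. Hsp70 works in a cycle driven by ATP, in which a J-domain protein brings the client and starts ATP hydrolysis, and an Hsp110 or BAG protein exchanges the nucleotide so that the client is let go. Hsp90 takes over many signalling clients, steroid hormone receptors among them, with cochaperones of its own. Part of the family is made at all times, and part is induced by heat and other protein stress through heat shock factor 1 (HSF1), which binds heat shock elements, inverted repeats built on the triplet GAA, in the promoters of its targets. In neurons the J-domain proteins Dnajc5 and Dnajc6 also serve the synaptic vesicle cycle, in vesicle release and in the uncoating of clathrin-coated vesicles.

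The study examined gene expression in the brain with and without Uhrf2, a nuclear protein that reads marks on chromatin and DNA. Polyadenylated RNA came from the brain of C57BL/6 animals, and 4 of the libraries carry the label wild type (WT) and 4 the label Uhrf2 knockout (KO). No other treatment or allele is named for either group, and the labels give no age, sex, form of the knockout allele or statement that each library is a separate animal, so the p-values measure the spread between these libraries, which may be technical. Levels are CPM, a gene's share of the counts of its library on a fixed scale, adjusted by TMM factors, and "labelled KO" is used throughout because of the level of Uhrf2 itself. Uhrf2 stood at 47.7 to 58.9 CPM in the WT libraries and at 86.4 to 91.8 CPM in the libraries labelled KO, 1.60-fold higher, which goes against the label, so every direction below is one between labels.

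Library totals ran from 11891350 to 19773921 counts. The first principal component, with 25.5% of the variance, placed WT libraries at -8.55 to -3.69 and 3 of the libraries labelled KO at 5.20 to 13.9, with KO replicate 2 between them at -0.31. Over all genes, the quasi-likelihood test of edgeR called 228 of 15902 (1.43%) at a p under 0.05 after Benjamini-Hochberg adjustment. Leaving out WT replicate 3 gave 110 calls, leaving out KO replicate 3 gave 130, and leaving out KO replicate 4 gave 146. Markers of the labelled tissue were present in every library: 7 neuronal genes summed to between 5758 and 6482 CPM and 6 oligodendrocyte genes to between 6611 and 7492 CPM.

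Promoter sequence was looked at for heat shock elements, since the best known members are HSF1 targets. RefSeq promoters (GRCm38.p6, 250 bases before to 50 after each transcription start) matched 60 of the 73 symbols. The remaining symbols, Hsp90aa1, Hsp90ab1 and Hspa8 among them, had no promoter entry and were not searched. A pair of facing triplets, GAANNTTC or TTCNNGAA, each of which reads the same on both strands, was found for 16 of those 60 genes (26.7%), against 15.1% of all 32851 promoter windows, where a gene with several starts had more chances to match than a single window has. A run of 3 triplets, GAANNTTCNNGAA or TTCNNGAANNTTC, each the reverse complement of the other and each holding 2 of the pairs, was found for 4 of the 60 genes (6.67%): Hsph1, Hspd1, Hspe1 and Dnajb6. It was present in 0.603% of all windows. These matches describe letters in a window and are not shown to be bound.

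The sites below are those of members on which the results turn, written 5′ to 3′ on the strand of the gene, with the matched letters in capitals. Hspd1 and Hspe1 are transcribed away from each other from 1 shared stretch of DNA, so their 2 sites are the same bases read from opposite strands.
Hsph1, after its start, chr5:149636280-149636308 (minus strand): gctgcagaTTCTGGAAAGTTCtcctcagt
Hsph1, before its start, chr5:149636352-149636379 (minus strand): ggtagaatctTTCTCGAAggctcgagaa
Hspd1, chr1:55088054-55088081 (minus strand): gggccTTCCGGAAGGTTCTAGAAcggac
Hspe1, chr1:55088054-55088081 (plus strand): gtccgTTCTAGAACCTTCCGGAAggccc
Dnajb6, chr5:29735844-29735872 (plus strand): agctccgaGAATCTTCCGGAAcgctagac
Dnaja1, chr4:40722334-40722361 (plus strand): aaagcctctaGAAAATTCtacgaggctc
Hspb1, chr5:135887792-135887819 (plus strand): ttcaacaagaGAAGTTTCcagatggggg
Hspb1, chr5:135887812-135887839 (plus strand): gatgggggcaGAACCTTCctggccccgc
The Hsph1 run begins 16 bases after the start and its pair 54 bases before it, or 37 after and 33 before another RefSeq start. In GENCODE Hsph1 begins further upstream, at base 149636376, so both matches lie inside the annotated gene. The same holds for the printed sites of Hspd1, Dnajb6 and Dnaja1, whose annotated genes begin at bases 55088243, 29735688 and 40722150. Those of Hspe1 and Hspb1 lie before the annotated gene. The runs begin 144 bases before the RefSeq start of Hspd1, 89 before that of Hspe1 and 46 before that of Dnajb6. For Dnajb6 the distance is 127 bases from another RefSeq start. Another RefSeq start of Hspd1 has no match in its window.

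Hspa1a and Hspa1b, the stress-induced Hsp70 genes, lie near each other on chromosome 17 as near-identical copies, and the 250 bases before their starts show how alike they are: 3 of the 250 bases differ. Both hold a pair of facing triplets, in capitals, 104 bases before the start.
Hspa1a, chr17:34972157-34972406 (minus strand): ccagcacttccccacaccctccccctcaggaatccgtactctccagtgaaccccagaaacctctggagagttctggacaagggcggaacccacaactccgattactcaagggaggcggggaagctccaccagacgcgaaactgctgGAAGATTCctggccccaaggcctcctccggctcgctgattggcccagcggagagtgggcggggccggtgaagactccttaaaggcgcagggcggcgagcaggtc
Hspa1b, chr17:34959239-34959488 (minus strand): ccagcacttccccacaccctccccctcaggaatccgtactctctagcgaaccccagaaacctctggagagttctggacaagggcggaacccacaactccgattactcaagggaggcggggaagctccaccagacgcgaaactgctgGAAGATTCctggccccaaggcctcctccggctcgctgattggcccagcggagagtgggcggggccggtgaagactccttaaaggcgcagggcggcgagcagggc
Neither of the 2 genes had fractional counts in any library, but shared reads can be assigned to either, so their separate levels are uncertain.

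Together the tested members made up between 0.786% and 0.895% of the counts of a library. Per length of transcript, the most abundant was Hsp90ab1, the constitutive cytosolic Hsp90, at 515 ± 31.2 CPM per kb (SD over 8 libraries). Hspa8, the constitutive Hsp70, followed at 197 ± 13.7 CPM per kb, then Hsp90aa1, the more inducible Hsp90, at 157 ± 11.0 CPM per kb and Hsp90b1, the Hsp90 of the endoplasmic reticulum (ER), at 143 ± 11.3 CPM per kb. Of these neighbours, Hsp90aa1 and Hsp90b1 had overlapping ranges of mean ± SD. Hsph1, Hsp90aa1 and Hspa8, which served as markers of the group, ranked 6, 3 and 2 among its members per length. Hspa5, the Hsp70 of the ER also known as BiP, Hsph1, an Hsp110 that exchanges nucleotide on Hsp70, and Hspa9, the mitochondrial Hsp70, stood at 84.4 ± 10.8, 80.3 ± 12.6 and 80.3 ± 3.61 CPM per kb and could not be ordered beyond their spread. The J-domain proteins at the top were Dnajc7, which also has TPR domains that bind Hsp70 and Hsp90, at 71.9 ± 0.776 CPM per kb, Dnajc5 at 69.6 ± 3.08 and Dnaja2 at 69.3 ± 3.35 CPM per kb, which could not be ordered either.

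Some of the best known stress-induced genes were near the lower end. Hspa1b and Hspa1a stood at 1.70 ± 0.362 and 1.19 ± 0.260 CPM per kb, from 51 to 104 and from 40 to 77 counts per library. Hspb1, the small heat shock protein Hsp27, was at 2.82 ± 0.634 CPM per kb, and Bag3, a cochaperone induced together with it in stress, at 6.79 ± 0.818 CPM per kb. These are levels of brain RNA as collected, and the WT and KO-labelled libraries overlapped for all 4 of these genes.

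**Figure D1:**
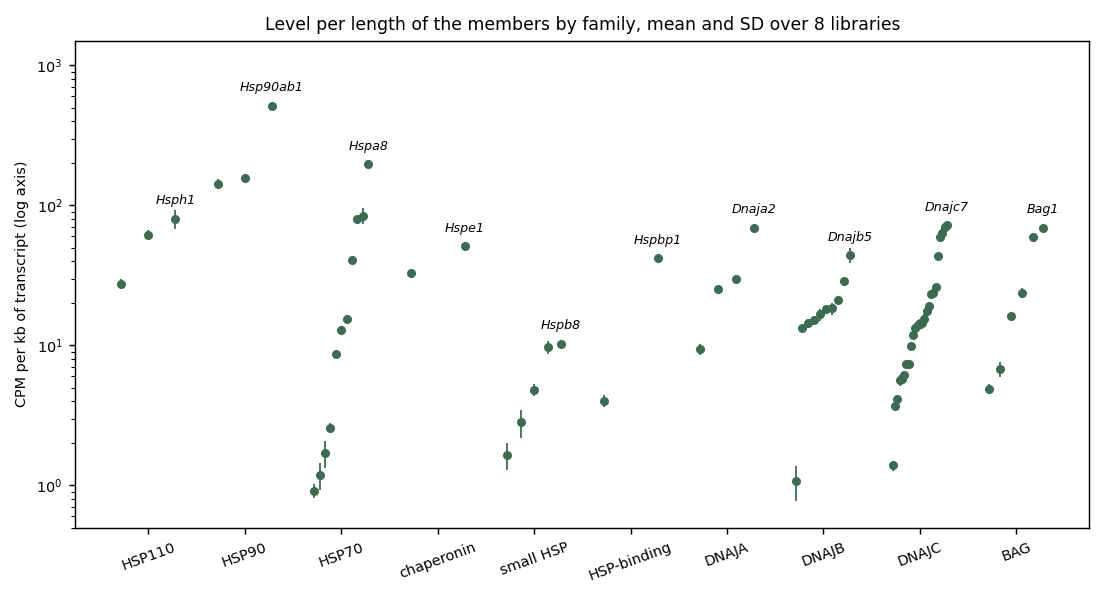
Level of each member with a transcript length in the annotation, in CPM per kb of its longest coding transcript on a log axis, grouped by family; points are means and bars SDs over the 8 libraries, and the name marks the highest member of each family. Hsp90ab1 at 515 CPM per kb was the highest, and Hspa1l, at 0.913 CPM per kb, the lowest.

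Members differed widely in how constant they were between libraries of 1 group. Among the 10815 genes with at least 10 CPM, the within-group SD of log2 CPM of Dnajc7 was at the 0.0832th percentile, with 166 to 170.4 CPM in the WT libraries and 165 to 169 CPM in those labelled KO. Bag1, which binds the ATPase domain of Hsp70, was at the 0.536th percentile. At the other end were Hspa5 at the 96.6th percentile, Bag3 at the 93.7th, Dnajb5 at the 91.1th, Dnajb1 at the 90.1th and Hsph1 at the 89.8th. Hspa5 ran from 239.8 to 350.4 CPM among the WT libraries alone.

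None of the 72 members passed edgeR's quasi-likelihood test between libraries labelled KO and WT at an adjusted p under 0.05, against 1.43% of all genes tested. At an unadjusted edgeR p under 0.05 there were 7 members higher and 1 lower, against 1025 higher and 979 lower of the 15902 genes tested. Both directions together made 11.1% of the members, against 12.6% of all genes tested, so the pooled share was not above the background. The members were mostly in the higher direction, where all genes were nearly even. DESeq2 called 1 member, Hsph1, among 311 genes in all, and limma-voom called 0 members with and without quality weights. With GC content and length trends removed, edgeR called 2 members among 295 genes in all. With the replicate number as a term it called 4 among 495, and with both 7 among 536. These fits are given with the other limits. The groups did not overlap for 1 member, Bag5, higher in the libraries labelled KO (1.39% of members, against 4.28% of all genes tested), and for 0 members in the lower direction (against 3.4% of all genes tested). In bulk tissue, fewer cells of a type and less RNA per cell cannot be told apart.

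The fold changes were small and mostly of 1 sign. Of the 72 members 49 (68.1%) had a positive log2 fold change, against 48.0% of all genes tested, with a median of 0.04 over the members. The medians were 0.14 over the 3 Hsp110 genes, 0.12 over the 3 Hsp90 genes, 0.10 over the 6 BAG genes, 0.03 over the 12 Hsp70 genes and -0.01 over the 25 Dnajc genes. Members share libraries and often regulators, so these counts describe the group and are no test of it.

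The 95% intervals bound what these libraries leave room for. The interval lay inside a 1.25-fold change in either direction for 57 of the 72 members and inside a 1.5-fold change for 69. The exceptions at 1.5-fold were Hspa1b, Hspb3 and Dnajb3, a J-domain gene at about 1 CPM. A 2-fold change lay outside the interval of all 72.

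**Figure D2:**
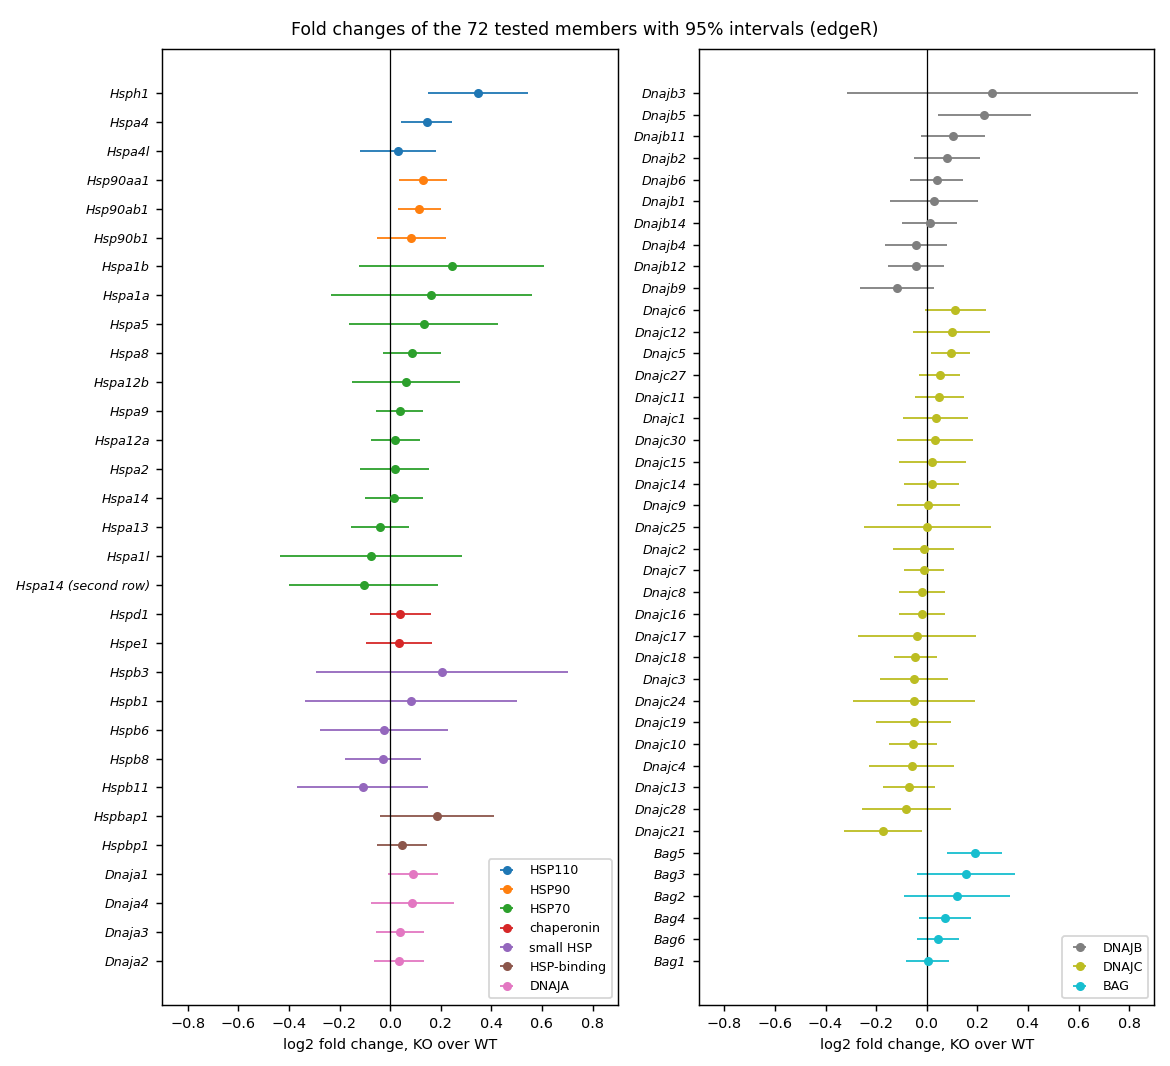
Log2 fold change of each of the 72 tested members, libraries labelled KO over WT, with its 95% interval from edgeR; colours mark the families and the line marks no change. Hsph1 has the largest value (0.35), most intervals of the Dnajc genes cover 0, and the wide intervals belong to genes of low count such as Hspa1b, Hspb3 and Dnajb3.

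Among the Hsp110 genes, Hsph1 had the largest fold change of all members. It stood at 274, 241, 247 and 315 CPM in WT replicates 1 to 4 and at 355, 304, 359.9 and 349 CPM in those of the libraries labelled KO. WT replicate 4 lay above KO replicate 2, and no other libraries crossed. Hsph1 was 269 ± 33.6 and 342 ± 25.7 CPM (SD, n = 4 each), a log2 fold change of 0.35 (SE 0.09, 95% interval 0.15 to 0.54) with an edgeR adjusted p of 0.118. By an exact 2-sided permutation test over the 70 arrangements of the libraries, p was 0.0571, where 0.0286 is the smallest this design allows.

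Of 18 alternatives 4 called Hsph1: DESeq2, the fit without WT replicate 4 and 2 fits with the replicate number as a term, whose values are given with the other limits. DESeq2 gave an adjusted p of 0.00118, and edgeR gave a log2 fold change of 0.43 with an adjusted p of 0.00134 without WT replicate 4, in a range from 0.00118 to 0.292 over 18 alternatives. Leaving out any other library kept it between 0.30 and 0.40, with adjusted p-values from 0.0512 (without KO replicate 2) to 0.292 (without KO replicate 1). The direction was the same in every alternative run.

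**Figure D3:**
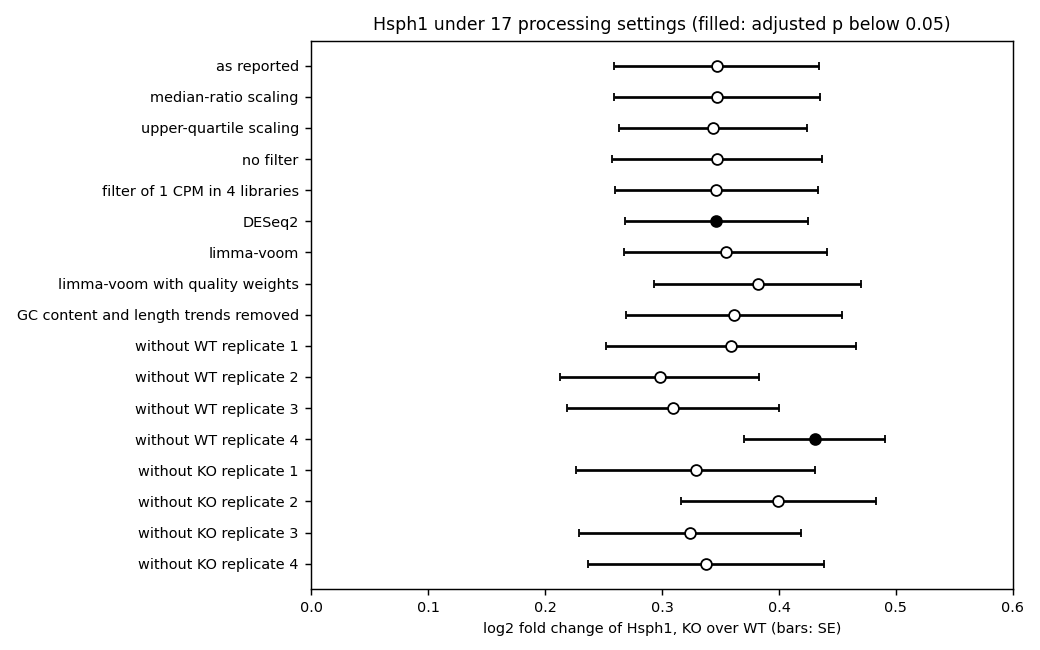
Log2 fold change of Hsph1, libraries labelled KO over WT, as reported and under 16 alternatives of scaling, filter, tool, sequence correction and left-out library; bars are SEs, and filled points have an adjusted p below 0.05. All points lie between 0.30 and 0.43, and those for DESeq2 and for the fit without WT replicate 4 are filled; the 2 fits with the replicate number as a term, which also called Hsph1, are not drawn.

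Hspa4, a constitutive Hsp110, was at 284, 254, 264.5 and 284 CPM in the WT libraries and at 321, 279, 305 and 295 CPM in those labelled KO. Again KO replicate 2 fell among the WT libraries, and the other 3 were above all of them. The log2 fold change was 0.14 (SE 0.05, 95% interval 0.04 to 0.24, edgeR adjusted p = 0.181). Over 18 alternatives the adjusted p ranged from 0.00911 to 0.401, and 3 edgeR fits called Hspa4. Hspa4l, the third Hsp110 gene, ran from 231 to 292 CPM in WT and from 242.5 to 280.3 CPM in the libraries labelled KO, with a log2 fold change of 0.03 (SE 0.07, adjusted p = 0.905), and its groups overlapped throughout.

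The cytosolic Hsp90 genes were close behind. Hsp90aa1 was at 514, 475, 468 and 514 CPM in the WT libraries and at 572, 502, 557.5 and 524 CPM in those labelled KO. Its log2 fold change was 0.13 (SE 0.05, 95% interval 0.03 to 0.23, edgeR adjusted p = 0.214), and the exact permutation p was 0.114. Hsp90aa1 was called by 2 edgeR fits of 18 alternatives, whose adjusted p ranged from 0.0112 to 0.476. KO replicate 2 was the only library labelled KO below the highest WT library.

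Hsp90ab1 was at 1230, 1204, 1222 and 1326 CPM in WT and at 1401, 1255, 1379 and 1364 CPM in the libraries labelled KO. WT replicate 4 was the highest WT library and KO replicate 2 the lowest of the other group, and the groups crossed only there. Its log2 fold change of 0.12 (SE 0.04) had an adjusted p of 0.212, and without KO replicate 2 it was 0.15 with an edgeR adjusted p of 0.0415, in a range from 0.0415 to 0.427 over 18 alternatives. Hsp90b1, the ER form, overlapped more widely, at 344 to 423 CPM in WT and 381 to 445 CPM in the libraries labelled KO (log2 fold change 0.08, SE 0.06, adjusted p = 0.643).

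Among the 12 Hsp70 genes, 9 had a positive fold change and 0 had an unadjusted p under 0.05. Hspa8 was at 474, 412, 448 and 492 CPM in WT and at 508, 443, 494 and 492 CPM in the libraries labelled KO (log2 fold change 0.09, SE 0.05, 95% interval -0.03 to 0.20, edgeR adjusted p = 0.545). Its exact permutation p was 0.257, and the groups overlapped. The order of the libraries was like that of Hsph1: WT replicate 2 was lowest and KO replicate 2 the lowest of its group.

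Hspa5 was at 309, 239.8, 284 and 350.4 CPM in WT and at 359, 287, 339 and 311 CPM in the libraries labelled KO, a log2 fold change of 0.13 with an SE of 0.12 (adjusted p = 0.741). The SDs of 46.3 and 31.4 CPM within the groups were larger than the difference between their means of 296 and 324 CPM. The stress-induced pair stayed at the bottom of the range in every library: Hspa1b at 3.35 to 6.35 and 4.52 to 5.50 CPM (log2 fold change 0.24, SE 0.17, adjusted p = 0.613) and Hspa1a at 2.51 to 4.79 and 3.06 to 4.14 CPM (0.16, SE 0.19, adjusted p = 0.789), WT first. For both genes WT replicate 4 was the highest of all 8 libraries.

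Other Hsp70 genes moved less. Hspa9 was at 242 ± 8.64 and 248 ± 13.4 CPM, and Hspa12a, an atypical member abundant in brain, at 233.5 ± 8.66 and 237 ± 15.2 CPM, WT first, with log2 fold changes of 0.04 and 0.02. Hspa14, a ribosome-associated Hsp70, has 2 rows in the table that divide the reads of 1 locus in fractions: the larger stood at 37.4 and 37.8 CPM and the smaller at 3.90 and 3.60 CPM. The smaller, at a log2 fold change of -0.10 with an SE of 0.14, was among the 5 largest falls of the members, and how the counting divided the reads was not tested.

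The mitochondrial chaperonin Hspd1 (Hsp60) and its lid Hspe1 (Hsp10), which share the promoter sites printed above, had log2 fold changes of 0.04 each (SE 0.06 each, adjusted p of 0.835 and 0.872). Hspd1 was at 78.1 ± 4.0 and 80.3 ± 6.37 CPM and Hspe1 at 39.1 ± 3.29 and 40.0 ± 1.35 CPM, WT first. Of the 5 tested small heat shock proteins 2 had a positive fold change. Hspb1 ran from 1.77 to 3.17 CPM in WT and from 2.27 to 3.59 CPM in the libraries labelled KO, and Hspb8, the partner of Bag3 in clearing misfolded protein, stood at 18.8 ± 0.527 and 18.4 ± 1.37 CPM. Hspb3, at 1.16 and 1.39 CPM, had a log2 fold change of 0.20 with an SE of 0.24, and Hspb11, a protein of intraflagellar transport, one of -0.11 with an SE of 0.12.

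The 4 Dnaja genes and 7 of the 10 tested Dnajb genes had positive fold changes. Dnaja1, a partner of Hspa8 in refolding, was at 169, 156, 158 and 170.1 CPM in WT and at 178, 160.4, 182 and 174 CPM in the libraries labelled KO (log2 fold change 0.09, SE 0.05, edgeR adjusted p = 0.448). Dnajb1 (Hsp40), the stress-induced partner of Hspa1a, was at 49.7, 48.6, 53.9 and 65.7 CPM in WT and at 56.3, 51.9, 58.3 and 56.1 CPM in the other group, with a log2 fold change of 0.03 (SE 0.08, adjusted p = 0.932). The highest of all 8 libraries for Dnajb1 was WT replicate 4.

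Dnajb5 had the largest fold change among the well-measured Dnajb genes. It was at 111, 137, 142.5 and 145 CPM in WT and at 139, 158, 165 and 167 CPM in the libraries labelled KO, a log2 fold change of 0.23 (SE 0.08, 95% interval 0.04 to 0.41, edgeR adjusted p = 0.276). Dnajb5 was called by 2 of 18 alternatives, both edgeR fits with the replicate number as a term. The adjusted p ranged from 0.00116 to 0.462 over the 18. Its library order was another one: replicate 1 was the lowest in both groups, and KO replicate 1 lay below WT replicates 3 and 4. Dnajb2 and Dnajb6, which hold back protein aggregation in neurons, had log2 fold changes of 0.08 and 0.04 (adjusted p of 0.640 and 0.817), and Dnajb3, at about 1 CPM, one of 0.26 with an SE of 0.27.

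Dnajb9 (ERdj4), an ER J-domain protein induced by unfolded protein, was on the lower side, at 50.04, 40.3, 38.4 and 42.3 CPM in WT and at 40.1, 39.9, 39.4 and 37.3 CPM in the libraries labelled KO (log2 fold change -0.12, SE 0.07, edgeR adjusted p = 0.523). WT replicate 1 was the highest library. Dnajc3 (P58IPK), which works beside Hspa5 in the ER, was at 91.5 ± 10.1 and 88.2 ± 2.89 CPM, WT first (log2 fold change -0.05, adjusted p = 0.821). So the ER members did not share 1 sign: Hspa5 and Hsp90b1 had positive values and Dnajb9 and Dnajc3 negative ones, each with a 95% interval that covers 0.

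The Dnajc genes were divided, 11 of 25 positive. Dnajc25 changed sign under upper-quartile scaling. Several others of either sign, such as Dnajc1, Dnajc9, Dnajc2 and Dnajc4, changed sign in some of the 18 alternatives. Dnajc5 (cysteine string protein), the vesicle chaperone of presynaptic terminals, was at 444, 442, 431 and 453 CPM in WT and at 491, 451, 472 and 478 CPM in the libraries labelled KO (log2 fold change 0.09, SE 0.04, 95% interval 0.02 to 0.17, edgeR adjusted p = 0.273). WT replicate 4 lay just above KO replicate 2, and no other libraries crossed. Dnajc6 (auxilin), which recruits Hspa8 to strip clathrin from vesicles, was at 352, 312, 313 and 326.5 CPM in WT and at 373, 309, 362 and 365 CPM in the other group, with a log2 fold change of 0.11 (SE 0.06, adjusted p = 0.427).

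KO replicate 2 was the lowest of all 8 libraries for Dnajc6. Without it the log2 fold change was 0.17 with an edgeR adjusted p of 0.0495, in a range from 0.0478 to 0.659 over 18 alternatives. Neuronal markers were measured beside these neuronal members: the sum of 7 such genes was 5758 to 6196 CPM in WT and 5938 to 6482 CPM in the libraries labelled KO, lowest in KO replicate 2 within its group, and 7 of the 7 had positive log2 fold changes, 0 of them called. Their part in the values of Dnajc5 and Dnajc6 was not tested.

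Dnajc21, a J-domain protein of ribosome maturation, had the largest fall among the members and the only one with an unadjusted p under 0.05. It was at 32.6, 30.1, 29.4 and 35.4 CPM in WT and at 25.6, 27.4, 28.01 and 31.5 CPM in the libraries labelled KO (log2 fold change -0.17, SE 0.07, 95% interval -0.33 to -0.02, edgeR adjusted p = 0.324). KO replicate 4 lay above 2 of the WT libraries. Dnajc28 had a log2 fold change of -0.08 with an SE of 0.08.

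All 6 BAG genes had positive fold changes, although that of Bag1 turned negative without KO replicate 2, and also after correction for GC content and length. Bag5, which carries several BAG domains and acts on Hsp70 as an exchange factor, had the lowest p of all members. It was at 49.95, 47.6, 45.9 and 46.8 CPM in WT and at 57.7, 53.1, 52.4 and 53.6 CPM in the libraries labelled KO, with no overlap. The log2 fold change was 0.19 (SE 0.05, 95% interval 0.08 to 0.30) and the edgeR adjusted p 0.0838. Of 18 alternatives 2 called Bag5, both edgeR fits with the replicate number as a term. The adjusted p ranged from 0.0251 to 0.2635 over the 18.

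The other BAG genes overlapped between the groups. Bag3 was at 14.1 to 18.3 CPM in WT and at 15.6 to 20.4 CPM in the libraries labelled KO (log2 fold change 0.16, SE 0.09, adjusted p = 0.521), and Bag6, a guard of newly made membrane proteins, at 226 ± 7.39 and 233.5 ± 6.17 CPM. Bag1 was the flattest, at 93.3 ± 0.951 and 93.6 ± 1.79 CPM. The sum of the 6 was 464 to 477 CPM in WT and 485 to 498 CPM in the libraries labelled KO, and these ranges did not overlap.

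**Figure D4:**
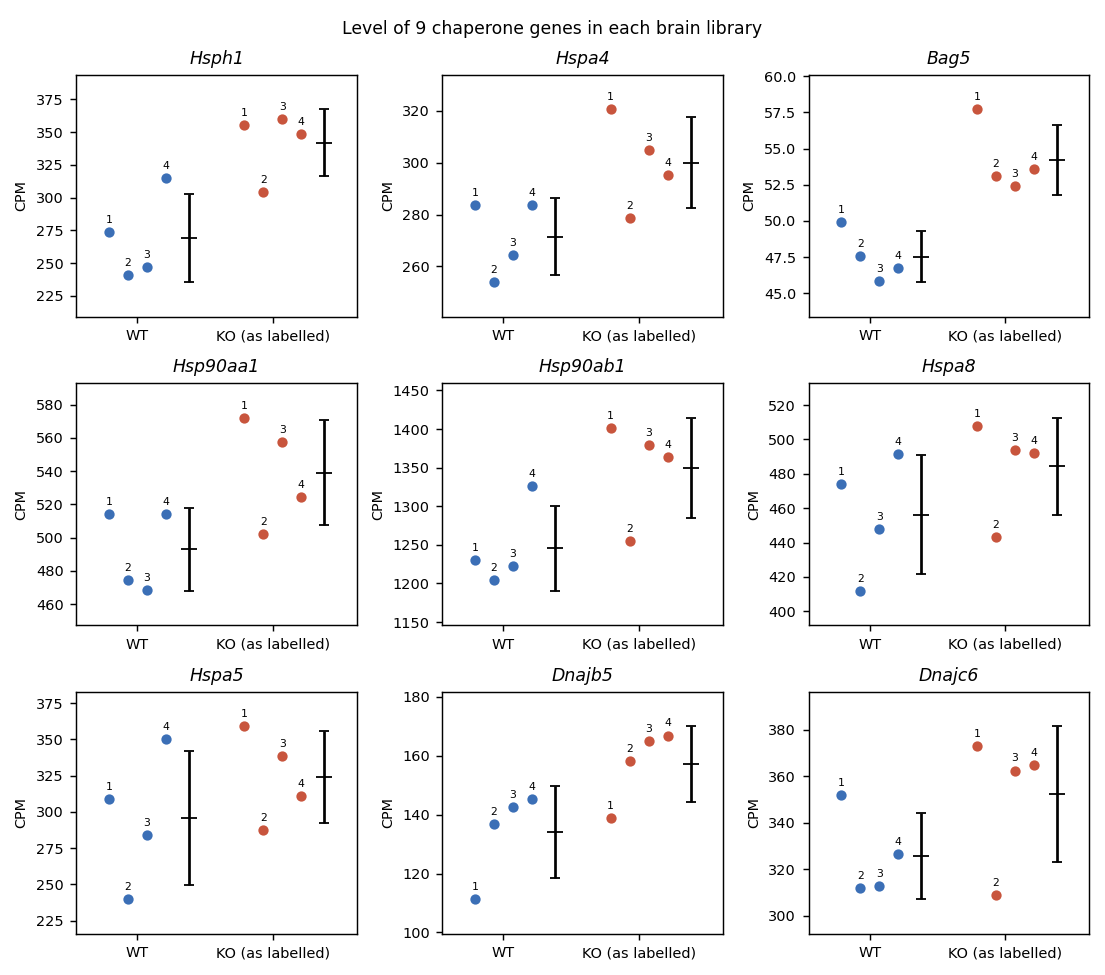
CPM of 9 members in each library, numbered by replicate, with the mean and SD of each group (n = 4) beside the points; the axes do not start at 0. The groups are apart for Bag5 and cross for the others, for Hsph1 only through WT replicate 4 and KO replicate 2.

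Lists of chaperone partners, heat shock factors, folding factors, cold-induced and clock genes held 87 tested genes that are not members, of which 1 passed. Fkbp5, an immunophilin of the Hsp90 and glucocorticoid receptor complex whose own gene is a target of that receptor, rose from 41.7, 37.8, 35.1 and 40.5 CPM in WT to 55.6, 52.1, 54.1 and 51.0 CPM in the libraries labelled KO, without overlap (log2 fold change 0.46, SE 0.06, edgeR adjusted p = 0.000206). It kept its call in all 18 alternatives. It was 1 of 19 Hsp90 cochaperones tested, of which 0 fell and 18 did not pass.

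The rest of the Hsp90 and Hsp70 partners did not pass. Of the 19 Hsp90 cochaperones 3 (15.8%) had an unadjusted edgeR p under 0.05, all higher, against 12.6% of all genes tested in either direction. In the higher direction alone, 1025 of the 15902 genes tested reached that level. The 3 cochaperones were Fkbp5 itself, Ahsa1 and Stip1. Stip1 (Hop), which links Hsp70 to Hsp90, was at 185 ± 12.2 and 202 ± 13.2 CPM (log2 fold change 0.12, 95% interval 0.01 to 0.23, edgeR adjusted p = 0.353), Fkbp4 at 155.5 ± 10.8 and 164 ± 7.33 CPM, St13 (Hip) at 179 ± 11.2 and 188 ± 9.09 CPM and the ubiquitin ligase Stub1 (CHIP) at 122 ± 3.59 and 126 ± 6.69 CPM, WT first. Of the 16 Hsp70 partners under other names 0 passed, 13 had positive values, and Gak, the widely expressed auxilin, named here because its groups did not overlap, was at 133 to 134 and 136 to 140.2 CPM.

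Heat shock factors and proteins that bind them did not pass either: of 5 tested (Hsf1, Hsf2, Hsf4, Hsbp1 and Hsbp1l1), 0 rose and 0 fell. Hsf1 was at 37.6 ± 2.04 and 38.1 ± 1.06 CPM and Hsf2 at 28.7 ± 0.731 and 28.01 ± 0.813 CPM, WT first. Of 17 genes of the cytosolic chaperonin, prefoldin and related factors (Pdcl3, Mkks, Bbs10 and Bbs12 among them), 20 of ER folding and 16 of mitochondrial folding and quality control, 0 passed in each list, with 12, 14 and 13 positive values, and of 14 clock genes 0 passed, with 8 positive values. Hyou1, the Hsp110 of the ER, was at 126 ± 7.83 and 131 ± 6.24 CPM, and Cryab, a small heat shock protein of oligodendrocytes and astrocytes, at 82.8 ± 4.91 and 82.6 ± 5.98 CPM.

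The same few libraries were the highest or lowest for most members on a list of heat-inducible genes. The list holds 22 genes, 13 of them tested members, and includes genes that are also made without stress, such as Hsp90ab1 and Hspa8. The log2 fold changes of the 13 members were all positive as reported, 0.03 to 0.35 with a median of 0.09. Those of Hspa4l, Hspe1, Hspb1 and Dnajb1 turned negative when some single libraries were left out. The median over the other 59 members was 0.02, and 0 of the 13 passed. Over the whole list 19 of the 22 genes had positive values, and Ahsa2 (-0.11), Cacybp (-0.02) and Cryab (-0.001) negative ones. Within the WT libraries, replicate 4 was the highest for 12 of the 13 and replicate 2 the lowest for 9, where over all genes tested these libraries were highest for 23.1% and lowest for 24.1%. Within the libraries labelled KO, replicate 2 was the lowest for 9 of the 13, against 27.3% of all genes tested.

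The same libraries stood out in the ER folding list: WT replicate 4 was the highest for 14 of 20 genes, WT replicate 2 the lowest for 15 and KO replicate 2 the lowest for 15 in its group. The cold-induced RNA-binding protein genes Cirbp and Rbm3 ran the other way. Their summed level was 142, 174, 146 and 134 CPM in WT and 137, 147, 123 and 130.4 CPM in the libraries labelled KO, with WT replicate 2 and KO replicate 2 the highest of their groups. Rbm3 was at 60.0 ± 3.39 and 51.1 ± 5.67 CPM (log2 fold change -0.23, SE 0.07, edgeR adjusted p = 0.122), and without KO replicate 2 its adjusted p was 0.0144, in leave-one-out fits that otherwise gave 0.118 to 0.321. Cirbp was at 89.0 ± 15.0 and 83.2 ± 9.32 CPM.

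Markers of other brain cell types were summed in the same libraries. The sum of 8 endothelial genes was 238, 260.4, 257 and 232 CPM in WT and 215, 236.5, 212 and 228 CPM in the libraries labelled KO, with replicate 2 the highest of either group. The sum of 6 microglial genes was 226 to 249 CPM in WT and 212 to 221 CPM in the libraries labelled KO, and that of 8 mural genes, most of it Rgs5, 158.5 to 167 and 150.3 to 156 CPM, without overlap for these 2 lists. Astrocyte genes, 7 of them, summed to 4482 to 4636 CPM in WT and 4236 to 4571 CPM in the libraries labelled KO, 6 oligodendrocyte genes to 7030 to 7418 and 6611 to 7492 CPM, and 6 choroid plexus genes to 885.5 to 1240 and 873 to 1038 CPM, with overlap. Fold changes were negative for 7 of 8 endothelial, 5 of 6 microglial, 4 of 8 mural, 6 of 7 astrocyte, 5 of 6 oligodendrocyte and 5 of 6 choroid plexus genes and for 0 of 7 neuronal genes. They were positive for 3 of 5 ciliated ependymal and 3 of 4 blood genes, whose sums overlapped between the groups. An unadjusted edgeR p under 0.05 was reached by 12.6% of all genes tested, in either direction. At that level 5 of the 8 endothelial, 3 of the 6 microglial and 3 of the 7 astrocyte genes were lower. So were 1 of the 8 mural and 1 of the 6 oligodendrocyte genes. Of the 7 neuronal genes 4 were higher, and 0 markers of any of these lists were called. None of these lists had a marker at 0. Their part in the values of the heat shock genes was not tested.

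**Figure D5:**
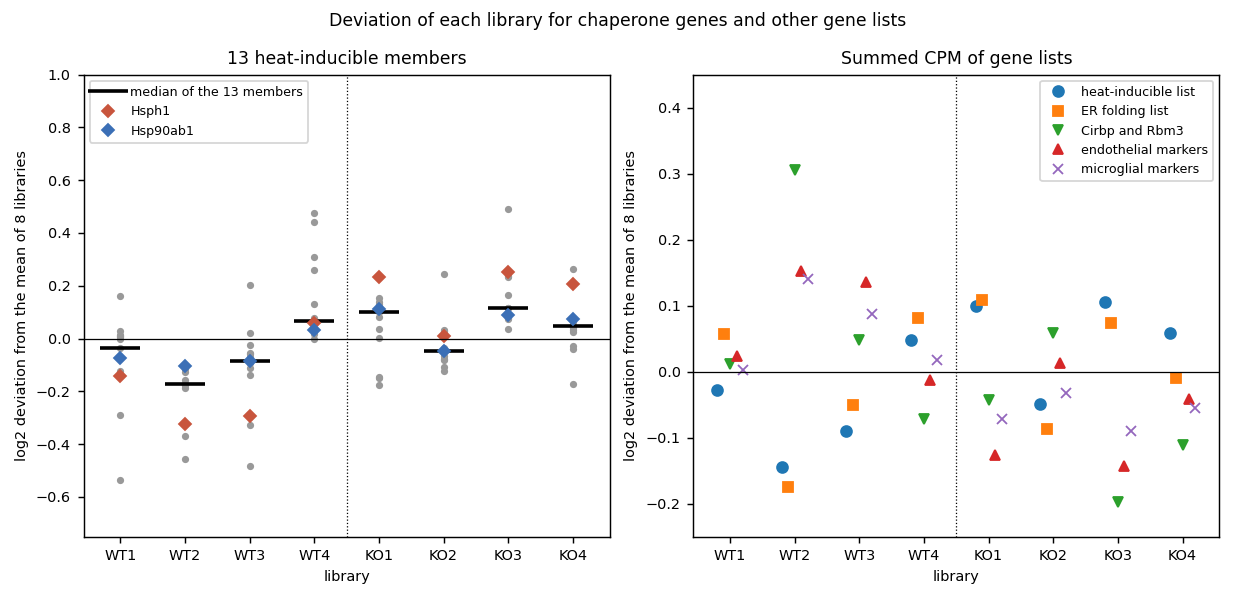
Left, log2 deviation of 13 heat-inducible members from their mean over 8 libraries, 1 grey point per gene, with the median as a bar and Hsph1 and Hsp90ab1 in colour; right, the same for the summed CPM of 5 gene lists. The median of the heat-inducible members lies below 0 in WT replicates 1, 2 and 3 and in KO replicate 2, and WT replicate 2 is the highest library for Cirbp and Rbm3.

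Hsph1 was set against each of the other 12 heat-inducible members over the 8 libraries, on log2 CPM, with exact permutation p-values adjusted over the 12 relations. The closest was Hsp90ab1, with Pearson's r = 0.957 (adjusted p = 0.00387) and Spearman's rho = 0.976 (adjusted p = 0.00238). Hsp90aa1 (r = 0.907, adjusted exact p = 0.0162; rho = 0.929, 0.00893), Dnaja1 (r = 0.898, 0.0209; rho = 0.976, 0.00238) and Hspa8 (r = 0.846, 0.0226; rho = 0.905, 0.0137) passed by both measures, and Hspa1b by r alone (r = 0.856, 0.0226; rho = 0.810, 0.0523). The lowest were Bag3 (r = 0.359) and Hspb1 (r = 0.277).

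Most of these calls were lost with 2 libraries left out. Without WT replicates 2 and 3, the farthest from the median of Hsph1, r was 0.960 for Hsp90ab1 (adjusted exact p = 0.0333) and between -0.13 and 0.76 for the other 11, none of which passed at this smaller number of libraries; r was still 0.755 for Hsp90aa1 and 0.745 for Dnaja1. Taken as deviations from the group means, with libraries permuted within groups, 7 of the 12 relations passed, among them Hsp90ab1 (r = 0.927, adjusted exact p = 0.0139), Dnaja1 (r = 0.899, 0.0139), Hspa8 (r = 0.915, 0.0156) and Hspd1 (r = 0.822, 0.0139). The 8 points of each relation share their libraries and scaling factors. Bag3, at r = -0.06, did not follow Hsph1 within groups.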

How the data were processed

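Per the labels' protocols, RNA was taken from brains with Trizol and columns and made into stranded mRNA libraries. The table deposited by the authors holds expected counts per gene, not scaled, 1 column per library, made with TopHat2 2.0.9 and edgeR on GRCm38 (mm10) among the tools and builds that the submitters' processing notes list without roles. No source used here names the counting program or its strand setting, and reads of overlapping genes cannot be told apart. Of the 74 members, 29 share exon bases with another gene in GENCODE and 14 have fractional counts.

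Counts were rounded. Genes were kept by filterByExpr and tested with edgeR 4.0.16 (TMM, robust quasi-likelihood, group only, Benjamini-Hochberg threshold 0.05). Self-tests used simulated counts. CPM are TMM-scaled, and log2 CPM had a prior count of 2. Levels per length used the longest coding transcript. Library totals of 11891350 to 19773921 make 3 counts worth 0.152 to 0.252 CPM. Replicates differed by more than counting noise (chi-square per degree of freedom 2.95 to 5.01), and the common biological coefficient of variation was 5.38%. Alternatives were 2 scalings, 2 filters, DESeq2 1.42.0, limma-voom (limma 3.58.1) with and without quality weights, GC and length correction, the replicate number as a block, and leaving out each library.

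Named members are those past the threshold, the 5 largest changes each way with at least 1 CPM in a group, the 8 highest per length, and a list by role. The members and lists were chosen with earlier results of these data known. Promoters are RefSeq's (GRCm38.p6).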

Additional observations from a re-analysis of the deposited data

Results flagged for a closer look

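In 54 groups of 4 libraries checked for a library far from the rest, 1 stood apart by Dixon's criterion (gap over range of 0.835). Chance gives about 1 in 20 such groups, so 1 of 54 is not above that share. The group was that of Dnajc6 in the libraries labelled KO, at 309 CPM in replicate 2 against 362 to 373 CPM in the other 3. The same library was the lowest of its group for 9 of 13 heat-inducible members.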

How the results depend on the processing

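The count of members called, 0 as reported, was 1 with DESeq2 (Hsph1) and 2 with GC content and length trends removed (Hsp90aa1 and Hspa4, edgeR adjusted p of 0.0216 and 0.0354), and ranged from 0 to 2 when 1 library was left out. The count over all genes, 228 as reported, was 311 with DESeq2 and 295 with GC content and length trends removed. It ranged from 110 to 324 in the leave-one-out fits. Over the pathway lists, here with the members on them, 1 gene (Fkbp5) was called as reported and 1 to 3 when 1 library was left out. The leave-one-out calls include the members Hsph1 and Hsp90ab1. There were 2 calls with DESeq2 (Fkbp5 and Hsph1), 2 with GC content and length trends removed (Fkbp5 and Hsp90aa1) and 2 with voom quality weights.

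Replicate numbers are shared between the groups, and the deviations of same-numbered libraries correlated at 0.34, 0.15, -0.01 and 0.17. KO replicate 2 correlated best with WT replicate 3 (0.28), and the numbers were not taken as pairs. WT replicates 1, 2 and 4 did correlate best with the library of the same number. Whether same-numbered libraries share a batch was not tested. With the replicate block, 4 members were called (Bag5, Dnajb5, Hspa4 and Hsph1, edgeR adjusted p of 0.031, 0.00117, 0.028 and 0.00347). So were 495 genes in all and 4 genes of the pathway lists, Hsph1 among them. With the block and GC and length correction, these counts were 7 (Hsph1 at 0.0038), 536 and 7, members on the lists again included.

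Small fold changes turned sign in single settings. When 1 library was left out, log2 fold changes ranged from -0.019 to 0.097 for Hspa4l, -0.010 to 0.051 for Hspa12a, -0.0083 to 0.089 for Hspe1, -0.10 to 0.19 for Hspb1, -0.060 to 0.0030 for Hspb8, -0.023 to 0.13 for Dnajb1, -0.0022 to 0.017 for Bag1, -0.052 to 0.032 for Cryab, -0.0080 to 0.058 for Hsf1 and -0.17 to 0.021 for Cirbp. With GC and length trends removed, without and with the replicate block, they were -0.0186 and -0.0182 for Bag1, -0.0152 and -0.0154 for Hsf1, and 0.0078 and 0.0086 for Hsf2. With voom quality weights they were 0.0232 for Cryab and -0.0052 for Hsf1. The cause was not tested.

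Without the 2 libraries farthest from the median of Hsph1, the correlation with Hsph1 was 0.745 for Dnaja1, 0.755 for Hsp90aa1, 0.567 for Hspa1b and 0.641 for Hspa8, none passing, and -0.13 for Hspa4l and -0.066 for Hspe1. Hsp90ab1 reached an adjusted exact p of 0.05 there with median-ratio scaling. The median log2 fold change of the members stayed between 0.02 and 0.04. Depth limits Hspa1a, Hspa1b, Hspb3 and Dnajb3, whose intervals are wide.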
